A study of Mus musculus with 12 samples.

Results

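Regulatory T cells (Treg) keep a resting or central state, close to that of naive T cells, or pass into an effector state, and a small set of transcription factors is known for acting on this choice. The 8 factors described here are Tcf7, Lef1, Bach2, Satb1, Foxp1, Id3, Id2 and Ets1. They were chosen by gene symbol, with earlier results of these data known, and each symbol belonged to a single gene identifier among the 36222 of the table. Their RNA was sequenced in 12 mouse Treg libraries, 3 in each of 4 groups. In all groups the cells were CD4+ cells of single animals, from the spleen by the labels and from spleen and lymph nodes by the study's methods, sorted by the yellow fluorescent protein (YFP) that a Foxp3-YFP-Cre allele expresses in Treg. Wild-type (WT) animals carried this Cre alone, while the Ikzf1 conditional knockout (cKO) animals also carried floxed Ikzf1, which encodes the transcription factor Ikaros, so that the gene is lost where Foxp3 is expressed. RNA was taken either directly (WT ex vivo and cKO ex vivo, from mice 6 to 8 weeks old) or after stimulation for 4 h by immobilized antibodies against CD3 and CD28, both at 1 µg/ml (WT stimulated and cKO stimulated).

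The factors act at different points. Tcf7 encodes TCF1 and Lef1 its close relative LEF1, DNA-binding proteins that can pair with beta-catenin and are high in naive T cells. Bach2 and Satb1 encode a repressor of effector genes and a chromatin organizer, Foxp1 a forkhead factor related to Foxp3, and Ets1 the founding member of the ETS family. Id3 and Id2 encode inhibitors that bind E proteins and keep them from DNA. In T cells Id3 is linked to naive and memory states and Id2 to effector states, and both are needed for Treg to stay functional.

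The libraries held 8208659 to 20247649 reads on genes. Values are TPM, transcript abundances per length with a fixed total per library, which can be compared between genes. A single gene, Gm10800, annotated as protein-coding, took 17.7 to 55.9% of the TPM of a library. TPM were therefore rescaled between libraries over the 13318 genes of at least 5 TPM in some group. The word "level" below means this scaled TPM. The share of Gm10800 moved with the groups. Unstimulated cells had at most 24.4% apart from WT ex vivo 2 (39.8%). Stimulated WT libraries held between 32.6 and 44.4%, whereas stimulated cKO libraries all exceeded the unstimulated ones (42.9, 47.6 and, for cKO stimulated 3, 55.9%). The part of this share in the results was not tested. WT ex vivo 3 held Xist at 179 TPM and Ddx3y at 0.097 TPM, as a female animal does, while Xist was at most 1.36 TPM in the other 11 libraries. The targeted gene, Ikzf1 (ENSMUSG00000018654), counted over all its exons, had a level of 104 to 114 in WT and 33.03 to 42.1 in cKO ex vivo. After stimulation the WT libraries were at 66.7 to 71.1 and the cKO libraries at 23.3 to 30.1. It was lower in every cKO library than in every WT library of its condition. Of the markers of Treg and CD4+ T cells, Foxp3 was at least 88.6 and Cd3e at least 292 in every library. The summed level of the markers of B cells was 1.88 to 6.86, of CD8+ T cells 8.72 to 14.5, of NK cells 2.52 to 7.37, of myeloid cells 5.93 to 13.4, of dendritic cells 2.88 to 8.51 and of erythroid cells and platelets 1.21 to 7.33. Hba-a1 was at 0 to 2 reads in every library. The B cell sum was higher in cKO stimulated (4.36 to 6.86) than in WT stimulated (2.89 to 4.18), with Ms4a1 at 2.09 to 4.24 and 1.15 to 1.23, and its part in the results after stimulation was not tested.

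All 8 factors were expressed in all 12 libraries, and all passed the filter on low values. In WT ex vivo Treg the order of the mean levels was Tcf7 (425 ± 30.1, SD, n = 3), Ets1 (348 ± 15.4), Satb1 (87.6 ± 18.9), Id2 (79.8 ± 11.1), Foxp1 (61.3 ± 7.93), Lef1 (59.6 ± 4.42), Bach2 (33.9 ± 7.80) and Id3 (22.4 ± 5.88). The libraries overlapped between Satb1 and Id2, between Foxp1 and Lef1, and between Bach2 and Id3. Other neighbours in this order did not overlap. Tcf7 lay above 99.1% of the tested genes and Id3 above 74.9%. In WT stimulated the Tcf7 and Ets1 libraries overlapped. In cKO stimulated Ets1 (212 ± 22.6) stood first and Tcf7 (130.0 ± 19.98) second, without overlap. Id3 was last in each group, and rested on as few as 68 reads in cKO stimulated 3, whereas Tcf7 had at least 1900 reads in every library.

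**Figure D1:**
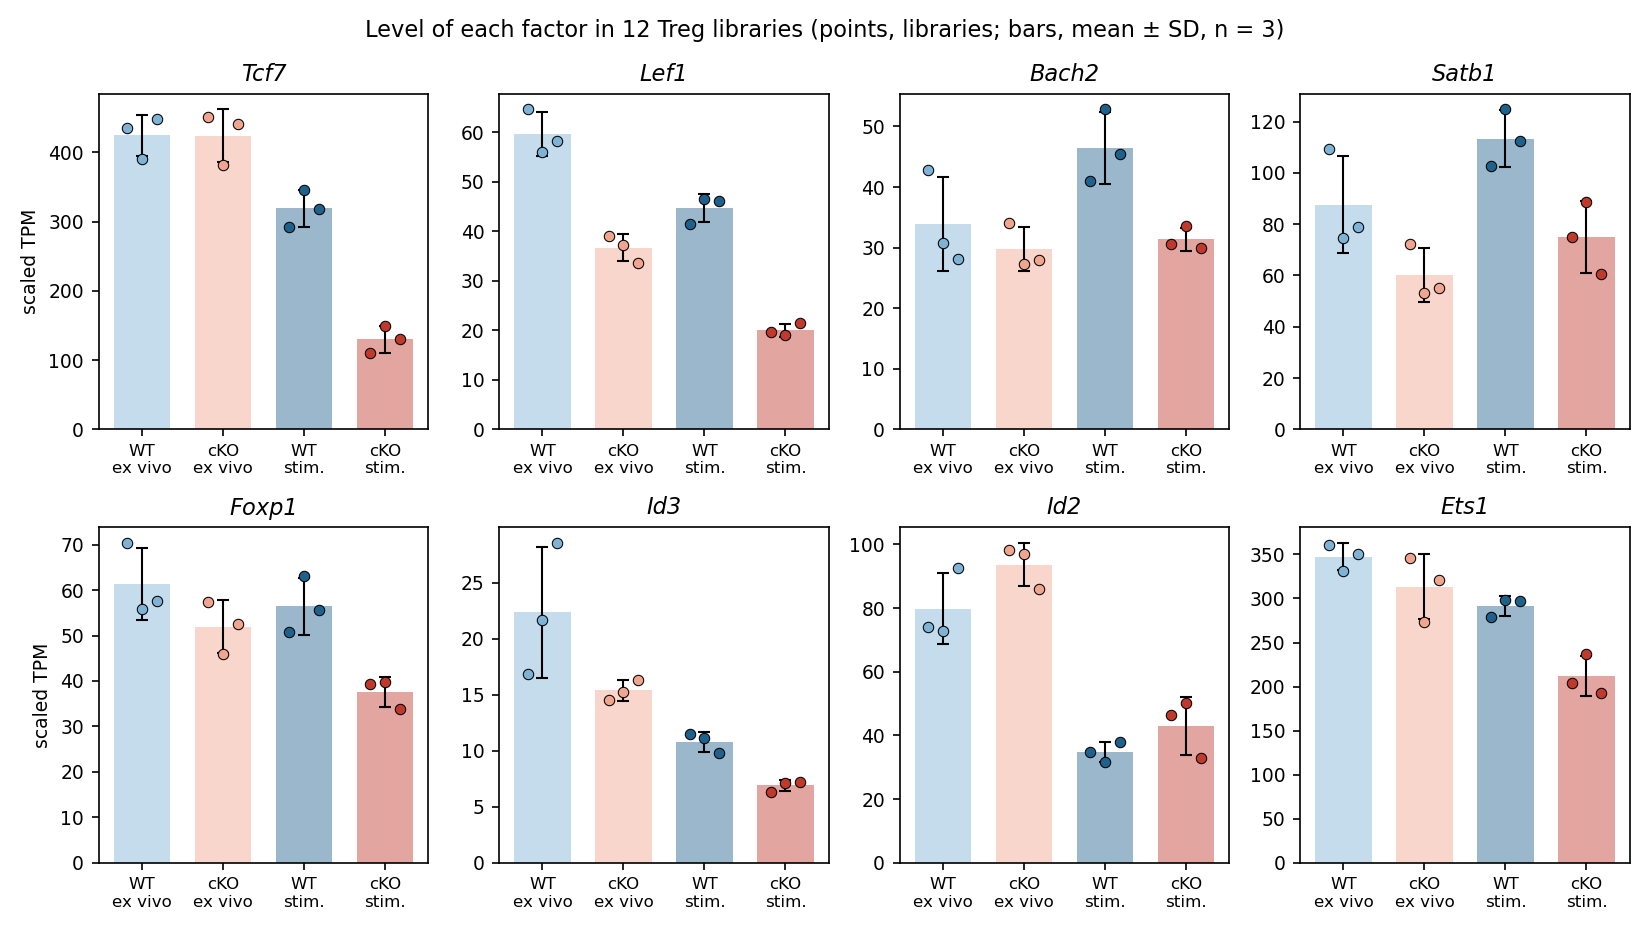
Scaled TPM of each of the 8 factors in the 4 groups. Points are libraries, bars are means and whiskers are SD (n = 3). Tcf7 is at 381 to 451 in both ex vivo groups and at 109.9 to 149.9 in cKO stimulated, and Lef1 is lower in cKO than in WT in both conditions.

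The first comparison asked how the loss of Ikaros changed these factors in Treg taken directly from the animal. Lef1 (ENSMUSG00000027985; mm9 chromosome 3, 130813389 to 130927274, + strand) was the one factor that fell. Its level was 64.5, 56.1 and 58.1 in the WT ex vivo libraries and 39.02, 37.1 and 33.6 in the cKO ex vivo libraries. Every cKO library was below every WT library, on the scaled and on the deposited TPM. The log2 change was -0.69 (SE 0.089, adjusted p = 0.00173, limma), so that cKO held 61.4% of the WT level. This was 1 of 8 factors, against 5.29% of all 13318 genes called. The call held without each of the 12 libraries in turn (largest adjusted p 0.0119). It was lost with TPM as deposited (-0.45, adjusted p = 0.312) and with all genes of at least 1 TPM (-0.71, adjusted p = 0.255).

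Tcf7 (ENSMUSG00000000782; mm9 chromosome 11, 52065873 to 52096681, - strand), the closest relative of Lef1 among these factors, did not follow it ex vivo. Its level was 435, 391 and 448 in WT and 451, 381 and 441 in cKO, and the groups overlapped throughout. The log2 difference was -0.0021, with a 95% confidence interval of -0.28 to 0.28 (adjusted p = 0.997), an interval that leaves out the change seen in Lef1. Because both genes are read in the same library, their ratio does not depend on the scaling. Tcf7 exceeded Lef1 by a ratio of 6.75, 6.97 and 7.70 in WT ex vivo and 11.6, 10.3 and 13.1 in cKO ex vivo. The ratios did not overlap (exact permutation test, two-sided, p = 0.1, the smallest value 3 libraries against 3 can give).

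Among the other 6 factors none passed the test ex vivo. Satb1 (109, 74.8 and 78.7 in WT, 72.2, 53.1 and 55.1 in cKO) had a log2 change of -0.53 (SE 0.18, adjusted p = 0.139), and Id3 (16.8, 21.7 and 28.5 in WT, 14.6, 15.2 and 16.4 in cKO) one of -0.48 (SE 0.15, adjusted p = 0.105). For both of these factors every cKO library lay below every WT library on the scaled TPM, whereas the groups overlapped on the deposited TPM. With Lef1 this made 3 of 8 factors without overlap on the scaled TPM, against 21.5% of all genes tested. Satb1 and Id3 did pass with limma voom on the reads behind the TPM (adjusted p = 0.0367 and 0.0207), Satb1 also with the 10 TPM filter (-0.54, adjusted p = 0.0368) and Id3 also without WT ex vivo 1 (-0.66, adjusted p = 0.0201). Bach2, Foxp1 and Ets1 had log2 differences of -0.17, -0.23 and -0.15 and overlapping libraries. Id2 was the only factor with a positive difference (0.23, SE 0.15, adjusted p = 0.499). Its groups overlapped on the scaled TPM, whereas on the deposited TPM every cKO library of Id2 lay above every WT library. The median over the 8 factors was -0.20, and that over all tested genes -0.01.

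**Figure D2:**
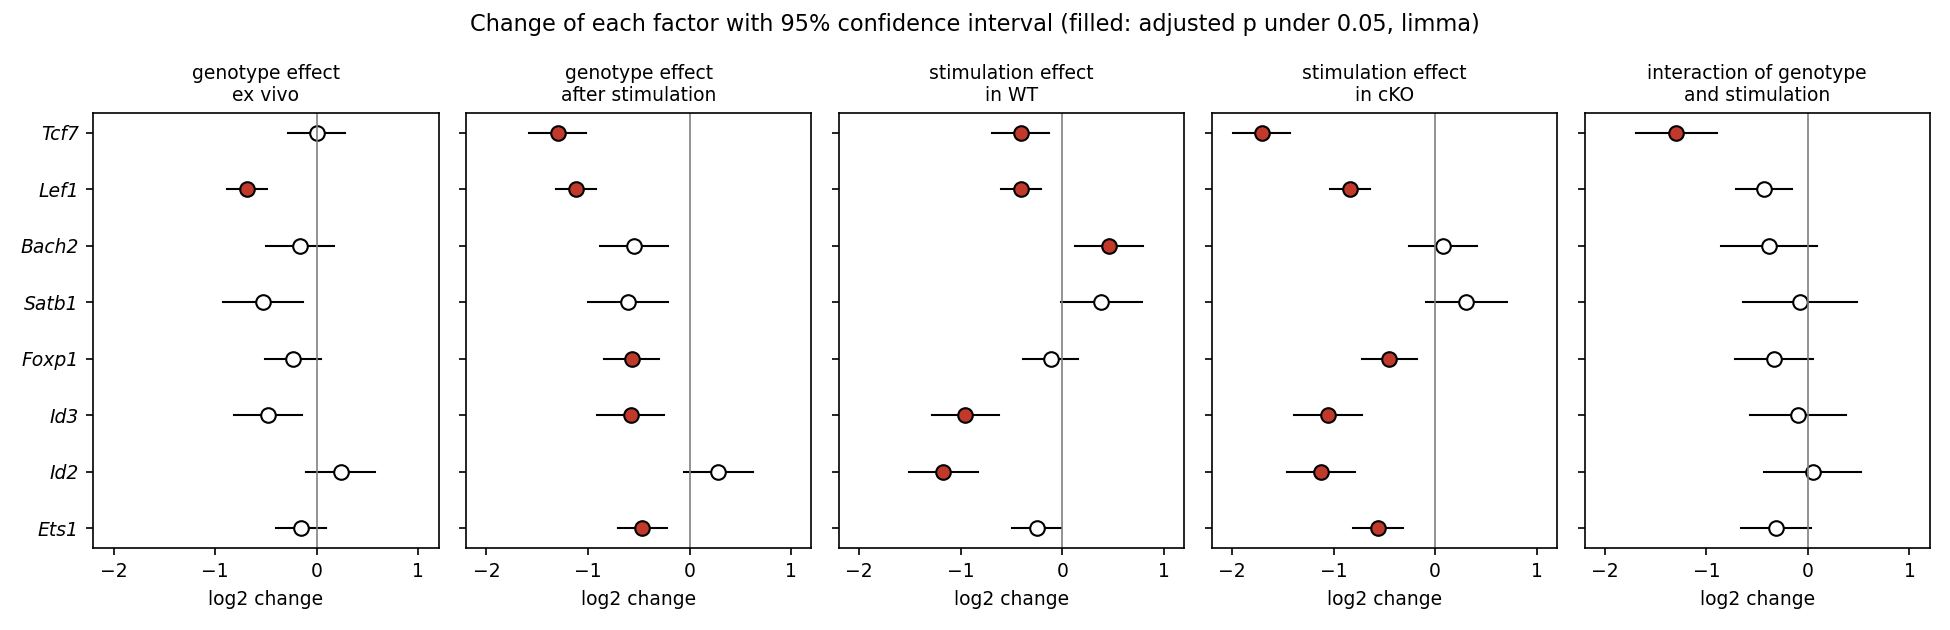
Log2 change of each factor in the 5 comparisons, on the scale of log2(scaled TPM + 1). Points are fitted values and lines are 95% confidence intervals; filled points had an adjusted p under 0.05. In all, 7 of the 8 points lie left of 0 for the genotype effect after stimulation, and Tcf7 is the only filled point of the interaction.

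The second comparison asked the same after 4 h of stimulation through CD3 and CD28. Here 5 of 8 factors fell in cKO, namely Tcf7, Lef1, Foxp1, Id3 and Ets1, against 6.93% of all genes called. Tcf7 and Lef1 changed most and in every setting tried, while the calls for Foxp1, Id3 and Ets1 lay near the threshold. In bulk RNA, fewer cells of a resting type and less of a transcript per cell cannot be told apart. The study named Tcf7, Lef1, Satb1, Foxp1 and Id3 among changed genes of these same cells, so their direction here is not independent evidence. The median log2 change over the 8 factors was -0.58, beside -0.03 over all tested genes.

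Tcf7 stood at 293, 346 and 319 in WT stimulated and at 109.9, 149.9 and 130.1 in cKO stimulated. The cKO libraries held 40.7% of the WT mean, and the highest of them was below the lowest WT library. The log2 change was -1.30 (SE 0.13, adjusted p = 0.000255), and it ranged from -1.60 to -1.18 over all settings and left-out libraries. Lef1 stood at 41.5, 46.5 and 46.1 in WT stimulated and at 19.6, 18.9 and 21.5 in cKO stimulated, again without overlap. Its log2 change was -1.12 (SE 0.089, adjusted p = 8.5e-05), with a range of -1.41 to -1.01. The ratio of Tcf7 to Lef1 was 7.06, 7.45 and 6.91 in WT stimulated and 5.61, 7.91 and 6.05 in cKO stimulated, and these overlapped (exact permutation test, two-sided, p = 0.4). Sequence around annotated starts is given below for the pair, which fell most, and for Id2, which was not lower in cKO than in WT. It comes from RefSeq (build GRCm38.p6, a different build from the mm9 of the counts), 250 bases before to 50 after a start. Capitals mark GGGAA, the core of the site bound by Ikaros, or its reverse complement. The windows are chr11:52282965-52283264 and chr11:52282546-52282845 (both - strand) for Tcf7, chr3:131110047-131110346 (+ strand) for Lef1 and chr12:25096043-25096342 (- strand) for Id2.
Tcf7, first window: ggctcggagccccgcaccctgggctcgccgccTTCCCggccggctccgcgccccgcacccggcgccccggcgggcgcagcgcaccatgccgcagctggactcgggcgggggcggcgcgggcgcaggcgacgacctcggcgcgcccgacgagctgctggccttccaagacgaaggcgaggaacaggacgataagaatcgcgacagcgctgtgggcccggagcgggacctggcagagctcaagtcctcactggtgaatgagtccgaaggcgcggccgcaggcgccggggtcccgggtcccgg
Tcf7, second window: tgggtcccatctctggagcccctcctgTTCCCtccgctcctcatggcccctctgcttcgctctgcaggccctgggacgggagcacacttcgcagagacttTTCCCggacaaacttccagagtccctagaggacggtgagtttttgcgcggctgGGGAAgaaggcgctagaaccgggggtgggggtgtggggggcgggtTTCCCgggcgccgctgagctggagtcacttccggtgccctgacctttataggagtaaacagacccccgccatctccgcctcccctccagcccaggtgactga
Lef1, first of 4 windows: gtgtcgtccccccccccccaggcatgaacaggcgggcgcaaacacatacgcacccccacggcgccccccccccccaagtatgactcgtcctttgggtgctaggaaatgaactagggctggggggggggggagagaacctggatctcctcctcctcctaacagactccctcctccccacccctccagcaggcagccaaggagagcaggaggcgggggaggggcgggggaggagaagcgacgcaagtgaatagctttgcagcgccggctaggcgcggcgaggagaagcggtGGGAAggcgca
Id2: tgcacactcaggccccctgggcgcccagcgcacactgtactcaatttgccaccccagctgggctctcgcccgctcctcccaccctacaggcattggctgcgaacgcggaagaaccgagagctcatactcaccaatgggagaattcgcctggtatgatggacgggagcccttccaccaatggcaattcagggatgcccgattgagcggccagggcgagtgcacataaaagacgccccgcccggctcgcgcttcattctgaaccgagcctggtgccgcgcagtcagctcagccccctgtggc

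The Tcf7 windows held GGGAA 1 and 4 times, the Lef1 window 1 time and the Id2 window not at all, counting both strands. Of the 17 windows that the table gives for 7 of the factors, 12 held it, that is both of Tcf7, 3 of 4 of Lef1, the single one of Bach2, 4 of 5 of Satb1 and 2 of 3 of Foxp1, but not those of Id3 and Id2. Id3, whose window lacked GGGAA, was called lower in cKO after stimulation (-0.58). Among all 32851 windows of this length 62.7% held GGGAA. Some windows of Lef1 overlap each other, as do some of Satb1, so a match can count in more than 1 window. The core AGGAA, which ETS proteins and Ikaros share and which has GGAA in common with GGGAA, occurred in 11 of the 17 windows and in 66.7% of all windows. The TCF/LEF core CTTTGA occurred in 3 of the 17, namely in 1 window each of Lef1, Bach2 and Foxp1, and in 16% of all windows. The E-box CANNTG occurred in 14 of the 17 and in 72.3% of all. These are matches of letters in short windows, not measured binding. Whether the annotated starts are those used in Treg was not checked. On the strand of the gene, the second Tcf7 window lies downstream of the first, inside the gene if the first start is used.

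Foxp1 (ENSMUSG00000030067; mm9 chromosome 6, 98875332 to 99216526, - strand) stood at 50.7, 63.02 and 55.6 in WT stimulated and at 39.4, 39.7 and 33.8 in cKO stimulated, a log2 change of -0.57 (SE 0.12, adjusted p = 0.0208). Ets1 (ENSMUSG00000032035; chromosome 9, 32443806 to 32565405, + strand) stood at 279, 299 and 297 in WT and at 205, 237 and 193 in cKO, a log2 change of -0.46 (SE 0.11, adjusted p = 0.0305). Id3 (ENSMUSG00000007872; chromosome 4, 135699412 to 135701670, + strand), the factor of lowest level, stood at 11.5, 11.1 and 9.81 in WT and at 6.36, 7.09 and 7.25 in cKO, a log2 change of -0.58 (SE 0.15, adjusted p = 0.0449). No cKO library of these 3 factors reached a WT library. Bach2 (ENSMUSG00000040270; chromosome 4, 32325779 to 32673083, + strand) stood at 41.05, 52.8 and 45.5 in WT and at 30.7, 33.5 and 29.9 in cKO, and Satb1 (ENSMUSG00000023927; chromosome 17, 51875512 to 51972615, - strand) at 103, 125 and 113 in WT and at 75.2, 88.7 and 60.7 in cKO. The genotypes did not overlap for either, but neither passed the test, with log2 changes of -0.55 (SE 0.15, adjusted p = 0.0568) and -0.61 (SE 0.18, adjusted p = 0.0707). Both passed with limma voom on the reads (adjusted p = 0.0094 and 0.0143) and with quantile normalization (0.0491 and 0.0424), and Bach2 passed when only the groups compared were fitted (0.0490). Of the calls above, Id3 was lost with limma voom (adjusted p = 0.0885), the 10 TPM filter (0.0772) and median of ratios (0.0535), and Ets1 when only the groups compared were fitted (0.0634). With the replicate number as a block, Id3 (adjusted p = 0.0579) and Ets1 (0.0724) were both lost. Foxp1 (-0.85, adjusted p = 0.0663) and Ets1 (-0.76, adjusted p = 0.0916) were lost on deposited TPM. With genes of at least 1 TPM, Foxp1 (-0.87), Ets1 (-0.77) and Id3 (-0.84) were all lost (adjusted p = 0.169 to 0.296). Under these 2 settings the changes were larger, but the median of the genes of at least 5 TPM also moved (-0.30 and -0.31). That made 7 of 8 factors with every cKO library below every WT library, against 30.8% of all genes without overlap in either direction.

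Leaving out single libraries moved these calls, and the number of all genes called moved with them, from 923 to between 398 and 1054. Without WT stimulated 2 the adjusted p rose to 0.1004 for Foxp1, 0.145 for Id3 and 0.125 for Ets1, and only Tcf7 and Lef1 were called. The count was also 2 without WT stimulated 3, without cKO stimulated 1 and without cKO stimulated 3, and 3 without WT stimulated 1 or cKO ex vivo 3. It was 4 without WT ex vivo 2, WT ex vivo 3, cKO ex vivo 1 or cKO ex vivo 2, and 7 without WT ex vivo 1, where Bach2 (adjusted p = 0.0213) and Satb1 (adjusted p = 0.0483) passed too. Without cKO stimulated 2 it was 5, with Satb1 (0.0429) called in place of Id3 (0.0612). With WT ex vivo 2 and cKO stimulated 3 left out together, the libraries of highest Gm10800 share in their own groups, Tcf7 (-1.27) and Lef1 (-1.14) were called and Foxp1 (-0.47), Id3 (-0.59) and Ets1 (-0.37) were not. In none of these fits did a fitted change of the 5 called factors turn positive. The female library, WT ex vivo 3, is not part of this contrast, but entered the shared estimate of the spread.

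Id2 (ENSMUSG00000020644; mm9 chromosome 12, 25778666 to 25780957, - strand) was the exception in direction. It stood at 34.7, 31.7 and 37.9 in WT stimulated and at 46.3, 50.2 and 32.8 in cKO stimulated, and the groups overlapped through cKO stimulated 3. The log2 difference was 0.28, with an interval of -0.05 to 0.62 (adjusted p = 0.289), and it passed with quantile normalization alone (0.46, adjusted p = 0.0374). The positive sign was lost on deposited TPM (-6.8e-05) and with all genes of at least 1 TPM (-0.015). Within a library Id2 exceeded Id3 by a ratio of 3.01, 2.84 and 3.86 in WT stimulated and of 7.27, 7.08 and 4.52 in cKO stimulated. Ex vivo the ratio was 4.39, 3.36 and 3.25 in WT and 6.74, 6.36 and 5.25 in cKO. The genotypes did not overlap in either condition, and each exact permutation test (two-sided) gave p = 0.1, the smallest value possible. With stimulation the ratio moved little, from 3.67 ± 0.63 to 3.24 ± 0.54 in WT and from 6.12 ± 0.78 to 6.29 ± 1.54 in cKO. Of the 5 pairs of factors for which ratios were computed, after the values had been seen, those 2 pairs are of closely related genes.

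**Figure D3:**
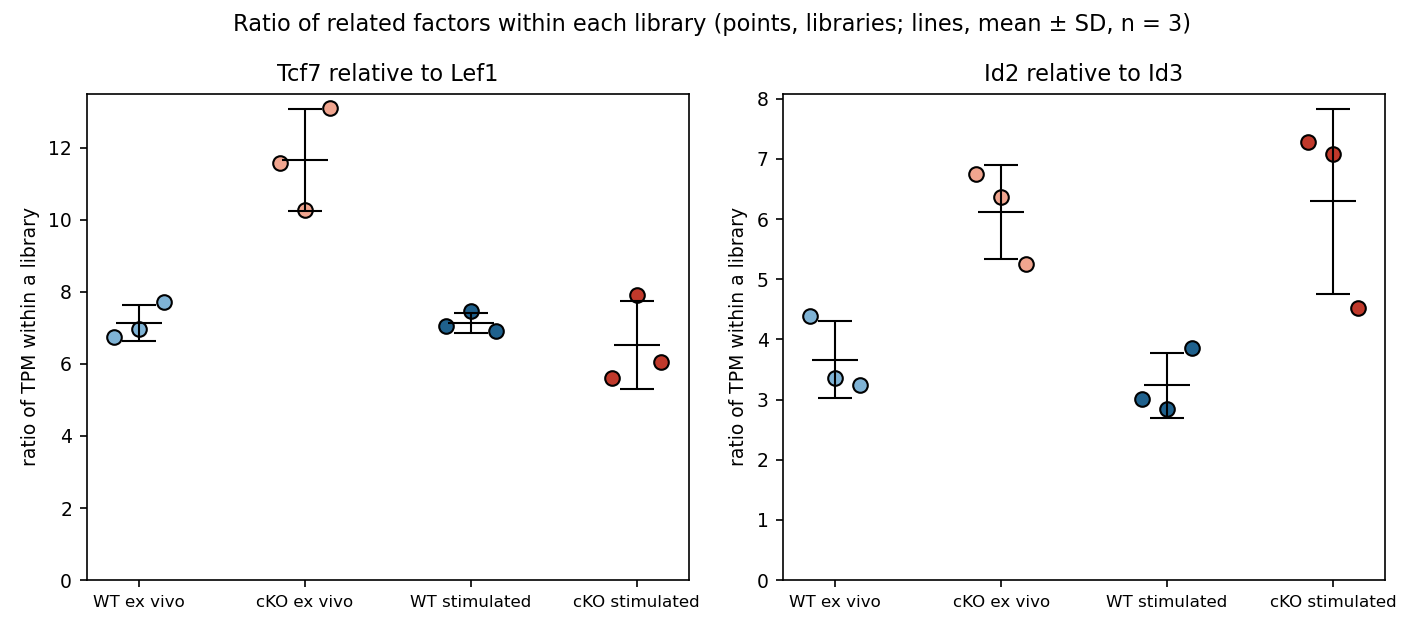
Ratio of the TPM of Tcf7 to that of Lef1 (left) and of Id2 to that of Id3 (right) within each library, which no rescaling between libraries changes. Points are libraries and lines are mean ± SD (n = 3). The Tcf7 to Lef1 ratio is high in cKO ex vivo alone (10.3 to 13.1), and the Id2 to Id3 ratio is higher in cKO than in WT in both conditions.

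Most of these factors differed between ex vivo and stimulated cells, which were compared within each genotype. No group was cultured without the antibodies, so effects of CD3 and CD28 and of the culture cannot be told apart. In WT, Id2 and Id3 fell most. Id2 went from 74.02, 72.8 and 92.7 to 34.7, 31.7 and 37.9, a log2 change of -1.17 (SE 0.15, adjusted p = 0.000213), and Id3 from 16.8, 21.7 and 28.5 to 11.5, 11.1 and 9.81, a log2 change of -0.95 (SE 0.15, adjusted p = 0.00075). In both cases each stimulated library was below each ex vivo library. Tcf7 (-0.41, SE 0.13, adjusted p = 0.0299) and Lef1 (-0.41, SE 0.089, adjusted p = 0.00533) fell by a smaller and nearly equal amount, and their ratio stayed at 7.14 (SD 0.50 ex vivo and 0.28 stimulated). Bach2 rose, from 42.8, 30.7 and 28.2 to 41.05, 52.8 and 45.5 (0.46, SE 0.15, adjusted p = 0.0402), though the groups overlapped through WT ex vivo 1. In total 5 of 8 factors were called, against 32% of all genes, and 5 of 8 did not overlap, against 47.5%.

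The calls for Tcf7, Lef1 and Bach2 in WT depended on the setting or the library. Lef1 was called without each library in turn but not with all genes of at least 1 TPM (-0.66, adjusted p = 0.0633), with deposited TPM (-0.21, adjusted p = 0.49), on which the groups overlapped, or with quantile normalization (-0.095, adjusted p = 0.516). Tcf7 was not called without WT ex vivo 1 (adjusted p = 0.0811), WT ex vivo 3 (0.0884), WT stimulated 1 (0.109) or WT stimulated 3 (0.0747), nor with all genes of at least 1 TPM (0.177), with the replicate block (0.0531) or with deposited TPM (-0.21, adjusted p = 0.516), on which the groups overlapped. Quantile normalization turned the sign of Tcf7 (0.50, adjusted p = 0.00399). On that scale a gene counts by its rank, and Tcf7 lay above 99.1% of the tested genes ex vivo and 99.4% after stimulation. Bach2 was not called without WT ex vivo 2 (adjusted p = 0.104), WT ex vivo 3 (0.134), WT stimulated 2 (0.161) or WT stimulated 3 (0.0836), nor without cKO ex vivo 3 (0.0544) or cKO stimulated 2 (0.0594), and not with all genes of at least 1 TPM (0.21, adjusted p = 0.735), deposited TPM (0.65, adjusted p = 0.0759), only the groups compared (0.0907), the replicate number as a block (0.0502) or both WT ex vivo 2 and cKO stimulated 3 left out (0.116). Satb1 (0.39, adjusted p = 0.128), Ets1 (-0.25, adjusted p = 0.105) and Foxp1 (-0.11, adjusted p = 0.513) were not called. Without WT ex vivo 1, whose Satb1 level was the highest ex vivo, Satb1 passed (0.55, adjusted p = 0.042), as it did with the 10 TPM filter (0.51, adjusted p = 0.0146) and quantile normalization (0.85, adjusted p = 0.00067). Quantile normalization also turned the sign of Ets1 (0.55, adjusted p = 0.000255).

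In cKO, 6 of 8 factors fell with stimulation, against 43.8% of all genes called, and the same 6 did not overlap, against 53.5%. Tcf7 fell most, from 451, 381 and 441 to 109.9, 149.9 and 130.1, a log2 change of -1.71 (SE 0.13, adjusted p = 4.6e-06), so that 30.6% of the ex vivo level remained. Id2 (-1.12, SE 0.15, adjusted p = 0.000238), Id3 (-1.05, SE 0.15, adjusted p = 0.00033) and Lef1 (-0.84, SE 0.089, adjusted p = 4.57e-05) followed. Ets1 (346, 273 and 321 to 205, 237 and 193) fell by 0.56 on the log2 scale (adjusted p = 0.00235). Foxp1 (57.4, 45.8 and 52.4 to 39.4, 39.7 and 33.8) fell by 0.45 (adjusted p = 0.0136), a call lost without cKO ex vivo 1 (adjusted p = 0.061) and without cKO stimulated 3 (0.0756). The call was also lost with the 10 TPM filter (-0.20, adjusted p = 0.0887), with WT ex vivo 2 and cKO stimulated 3 left out (-0.33, adjusted p = 0.0654) and with quantile normalization (-0.0098, adjusted p = 0.942). Quantile normalization turned the sign of Ets1 (0.14, adjusted p = 0.152). Bach2 (0.08) and Satb1 (0.31) were not called and overlapped. Satb1 passed with the 10 TPM filter (0.56, adjusted p = 0.00824) and, with quantile normalization, so did Satb1 (0.86, adjusted p = 0.000539) and Bach2 (0.46, adjusted p = 0.0155).

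The interaction tests whether the genotype effect after stimulation differs from that ex vivo, and 1 of 8 factors passed it, against 1.1% of all genes. For Tcf7 the difference was -1.30 on the log2 scale (SE 0.18, interval -1.69 to -0.90, adjusted p = 0.0122), because the genotypes were level ex vivo and apart after stimulation. The call held without each of the 12 libraries in turn (largest adjusted p 0.0425, without cKO ex vivo 1) and with WT ex vivo 2 and cKO stimulated 3 left out together (-1.19, adjusted p = 0.0474). It did not hold with all genes of at least 1 TPM (-1.58, adjusted p = 0.436), where limma called 0 genes and 2405 of 33873 had an unadjusted p under 0.05. Within a library, Tcf7 relative to Ets1 went from 1.22 ± 0.05 to 1.09 ± 0.06 with stimulation in WT and from 1.36 ± 0.05 to 0.615 ± 0.07 in cKO. For Lef1 the interaction was -0.43 (interval -0.71 to -0.16, adjusted p = 0.136). The other factors lay between -0.38 (Bach2) and 0.05 (Id2), with adjusted p from 0.391 to 0.941.

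The factors did not vary together as a single block. Across the 12 libraries, which share the 4 groups and the scaling, Pearson's r on log2 levels was 0.867 between Tcf7 and Lef1, 0.949 between Tcf7 and Ets1 and 0.923 between Foxp1 and Ets1. Bach2 and Satb1 were close to each other (0.918) but not to Tcf7 (0.127 and 0.0695). Id2 was opposed to Bach2 (-0.584) and Satb1 (-0.529). Among the genes of most similar pattern were Arl5c (0.991), Sp3 (0.983) and Trbj1-6 (0.980) for Tcf7, and St8sia6 (0.982) and Rabggta (0.969) for Lef1. They were Stk4 (0.937), Aagab (0.935) and Spin1 (0.931) for Bach2, Plcxd2 (0.963), Spin1 (0.944) and Setd8 (0.918) for Satb1, and Xpo6 (0.966), Zfx (0.959) and Ugcg (0.959) for Foxp1. For Id3 they were Tlr7 (0.984), snoU6-77 (0.982) and Scarna10 (0.977), for Id2 Thy1 (0.984), Gpr65 (0.981) and Ptger4 (0.979), and for Ets1 Hp1bp3 (0.987), Msn (0.983) and Nckap1l (0.981). Arl5c, the nearest to Tcf7, was level ex vivo (36.9 in WT and 36.8 in cKO) and apart after stimulation (30.5 and 16.8).

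Of 26 relatives and partners of the factors, 17 reached 5 TPM. The remaining 9, which include Tcf7l1, Tcf7l2, Id1 and Id4, had group means of at most 4.67 TPM and were not tested. Ex vivo, 1 of 17 rose and 1 fell in cKO, and after stimulation again 1 rose and 1 fell, against 5.29 and 6.93% of all genes called. Etv6, an ETS family repressor, rose (0.55, adjusted p = 0.00853), and Elf1, an ETS family activator, fell (-0.51, adjusted p = 0.0463). After stimulation Etv6 rose again (0.61, adjusted p = 0.00386) and Fli1, an ETS factor, fell (-0.42, adjusted p = 0.0484). Beta-catenin (Ctnnb1) and the corepressors Tle3 and Tle4, which bind TCF1 and LEF1, had log2 differences of -0.29, -0.07 and -0.14 after stimulation and were not called. The E proteins Tcf3 and Tcf12, which Id2 and Id3 inhibit, had -0.05 and -0.20. The median over the 17 was 0.03 ex vivo and -0.14 after stimulation, beside -0.01 and -0.03 over all tested genes.

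With stimulation, 1 of 17 relatives rose and 7 fell in WT, against 32% of all genes called, and 1 rose and 11 fell in cKO, against 43.8%. Ctnnb1 was the one that rose, by 0.90 in WT (adjusted p = 0.000258) and 0.58 in cKO (adjusted p = 0.00344). The small Maf proteins Maff (-2.31 in WT and -2.06 in cKO) and Mafk (-1.62 and -1.47), partners of Bach2 on DNA, fell most, with adjusted p of at most 1.62e-05. Mafg, another small Maf protein, was not called in either genotype (0.16 in WT and -0.16 in cKO). None of the 17 passed the interaction, against 1.1% of all genes called. In that comparison 1926 of all tested genes had an unadjusted p under 0.05.

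Genes that mark naive and central T cells mostly had lower values in cKO, though most of them did not pass the test. The log2 difference was negative for 11 of 13 ex vivo and 10 of 13 after stimulation. Over all tested genes the median was -0.01 ex vivo and -0.03 after stimulation. Of these 13, all tested, 2 fell and 0 rose in cKO ex vivo, against 5.29% of all genes called, and the list's median was -0.39. The genes that fell were Klf2 (-1.44, adjusted p = 0.000482), a factor that drives recirculation genes, and Klf3 (-0.75, adjusted p = 0.00637). After stimulation 5 fell and 1 rose, against 6.93% of all genes called, and the median was -0.53. S1pr1, the receptor for exit from lymphoid organs (-1.26, adjusted p = 0.00202), Cd27 (-1.15, adjusted p = 0.000391), Klf3 (-0.66), Il6ra (-0.61) and Il7r (-0.53, adjusted p = 0.0266) fell, and Bcl2, an inhibitor of apoptosis, rose (0.98, adjusted p = 0.00101). Ccr7, which guides cells to lymph nodes, stood at 837 ± 128 in WT and 571 ± 157 in cKO ex vivo and was not called (-0.57, adjusted p = 0.211). With stimulation 7 of 13 fell and 1 rose in WT (32% of all genes called), and 10 fell and 0 rose in cKO (43.8%), the largest change being that of Klf2 (-3.60 in WT and -2.69 in cKO). Cd27 (-0.85, adjusted p = 0.0486) and Bcl2 (1.33, adjusted p = 0.0122) passed the interaction, with opposite signs, against 1.1% of all genes called.

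Many genes of effector Treg were higher in cKO. Of 18 on the list, all tested, 11 rose and 0 fell in cKO ex vivo, against 5.29% of all genes called, of which 68.5% were higher. The median of the list was 0.69. Ebi3, a subunit of interleukin 35 (1.19, adjusted p = 0.00494), Irf4 (1.12, adjusted p = 0.00123), Bhlhe40 (1.12, adjusted p = 0.00447) and Tbx21, which encodes T-bet (1.04, adjusted p = 0.000931), rose most, and Prdm1, which encodes Blimp-1, rose by 0.76 (adjusted p = 0.00765). Il1rl1 (0.97), Il10 (0.87), Klrg1 (0.86), Nfil3 (0.85), Cd44 (0.62) and Maf (0.53) also rose, with adjusted p of at most 0.0439. After stimulation 9 rose and 0 fell, against 6.93% of all genes called, of which 47.6% were higher, and the list's median was 0.43. Tbx21 went from 6.48 ± 0.61 in WT to 24.0 ± 3.69 in cKO (1.73, adjusted p = 5.51e-05), Nfil3 rose by 1.39 (adjusted p = 0.000884) and Icos, a costimulatory receptor, by 0.90 (adjusted p = 0.00212). Ebi3 rose again (adjusted p = 0.00345). Il1rl1 (0.89), Gata3 (0.76), Maf (0.69), Prdm1 (0.56) and Irf4 (0.51) also rose, with adjusted p of at most 0.0474. With stimulation the effector genes were split, 5 rising and 9 falling in WT (32% of all genes called) and 5 rising and 8 falling in cKO (43.8%). Klrg1 (-0.67, adjusted p = 0.0454) was the only effector gene of the 18 that passed the interaction, against 1.1% of all genes called.

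**Figure D4:**
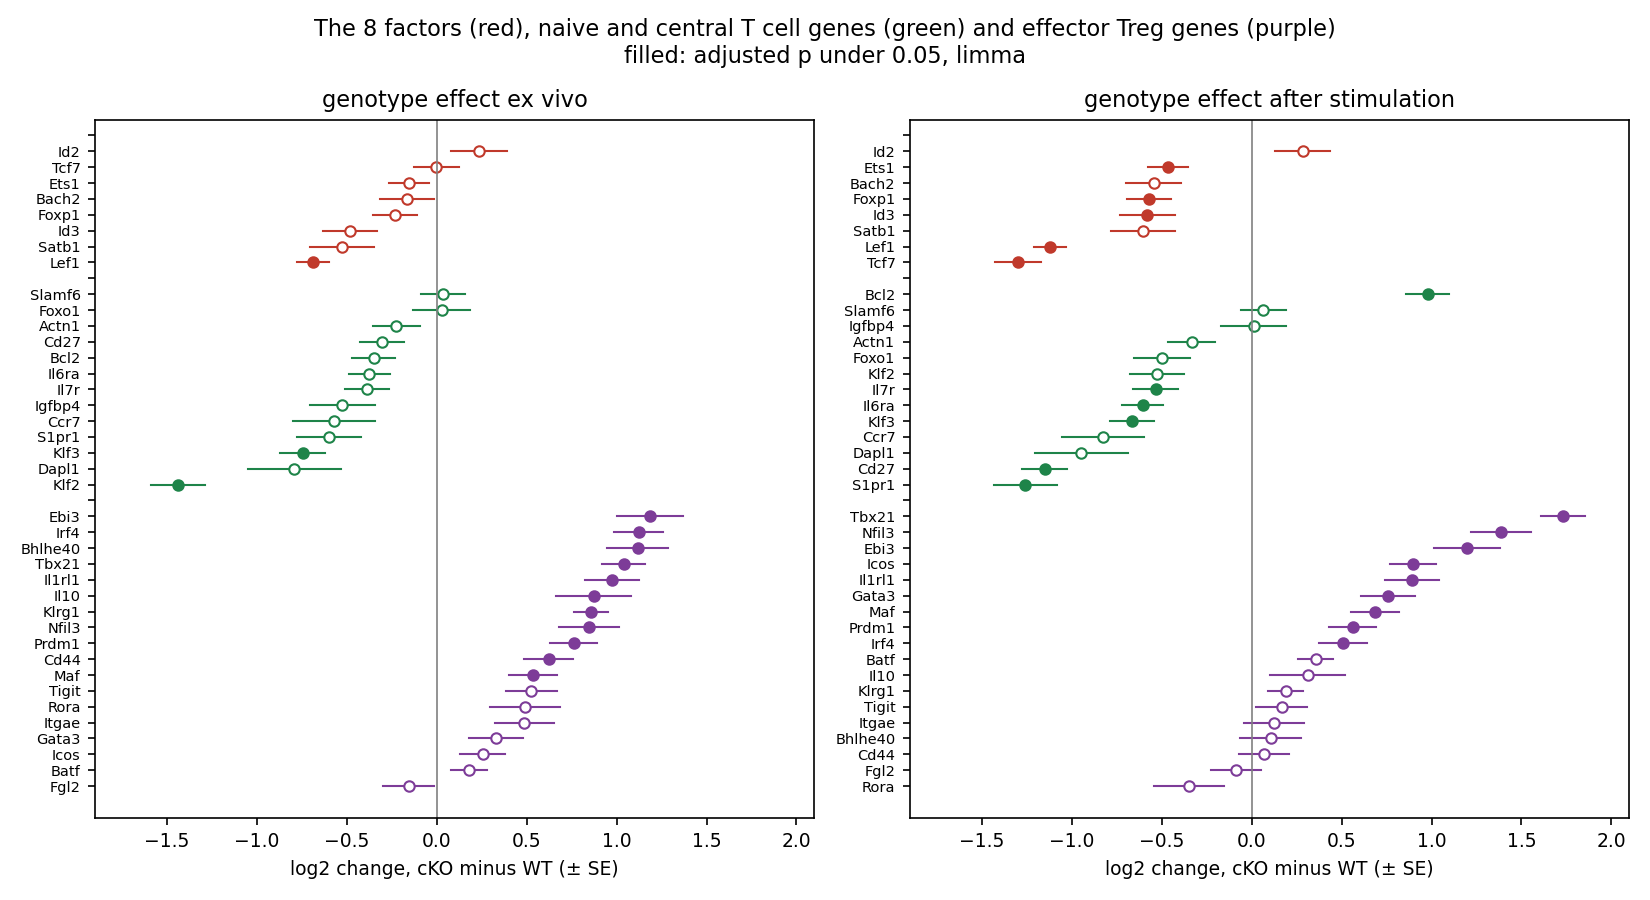
Log2 change, cKO minus WT, of the 8 factors (red), 13 naive and central T cell genes (green) and 18 effector Treg genes (purple), ex vivo (left) and after stimulation (right). Points are fitted values, lines are ± SE and filled points had an adjusted p under 0.05. Most purple points lie right of 0 in both panels, and Tcf7 is near 0 in the left panel and the lowest of the red points in the right one.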

How the data were processed

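Per the labels and the study's methods, the authors prepared directional libraries from RNA depleted of ribosomal RNA, read 51 bp from both ends, aligned the reads to mm9 with STAR 2.6.0c and counted reads on exons of Ensembl genes, by strand, with HTSeq 0.6.1. The authors deposited, for every gene in every library, a signal in TPM (1000000 in total per library) and a log2 value of it. The value of 1 read, which the deposited log2 column adds, gave back whole reads for 99.998% of values (within 0.01). A second table holds log2 fold changes, F statistics, p-values and FDR of the authors' own 6 comparisons and was not used.

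The 13318 genes with a mean of 5 TPM or more in some group were scaled by a trimmed mean of M-values (30% of M and 5% of A trimmed), and log2(scaled TPM + 1) was fitted with limma 3.58.1 (R 4.3.3, mean-variance trend) to all 12 libraries with the 4 groups as the only term. Fold changes on this scale understate those of low genes such as Id3. Two-sided p-values received Benjamini-Hochberg adjustment separately for the 5 comparisons, and a gene was called under 0.05. Each library came from cells of individual mice per the labels, which do not say whether ex vivo and stimulated libraries share animals. Ratios were compared by exact permutation tests. Levels are scaled TPM, and "deposited TPM" means before scaling. Reads carry no molecular identifiers, and replicates differed by more than counting error (chi-square per degree of freedom 4.91 to 55.3). That value used unscaled reads with Gm10800 included, so differences in the Gm10800 share enter it too. Exons of Foxp1 shared 0.628% of their bases with another gene on the same strand, those of the other 7 factors 0%.

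The 8 factors, the gene lists and markers were chosen with earlier results of these data known. Named were each factor, Ikzf1, list genes called between genotypes or in the interaction with up to 4 others by role, and for each factor the 3 genes of highest Pearson's r (2 for Lef1). List genes called only with stimulation, which the rule also covered, are given by count and the largest changes. A few list, marker and neighbour genes are not reported here, and lists and sums are given without them. Alternatives were filters of 1 and 10 TPM, a pseudocount of 0.5, no scaling, median of ratios, quantile normalization, a replicate block, only the groups compared, limma voom on recovered reads and each library left out. Windows around annotated starts (300 bases) came from a RefSeq table and were matched for 7 of the 8 factors, all but Ets1.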

Additional observations from a re-analysis of the deposited data

Results flagged for a closer look

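The genotype effect on Tcf7 differed between the conditions by the interaction test. The log2 change in cKO was -0.0021 ex vivo and -1.30 after stimulation, a difference of -1.30 (SE 0.18, adjusted p = 0.0122, limma), and all 3 stimulated cKO libraries (109.9 to 149.9 scaled TPM) lay below all 9 other libraries (293 to 451). Groups of 3 libraries were too small to look for single outlying samples.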

How the results depend on the processing

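With the 1 TPM filter the called factors numbered 0 for the genotype effect ex vivo, 2 after stimulation, 2 for stimulation in WT and 0 for the interaction, and called genes 57, 68, 1838 and 0. With TPM as deposited the factors numbered 0, 3 and 2 in the first 3 of these, and genes 273, 306, 1943 and 67 (interaction). Relative to the 5 TPM scaling, deposited TPM moved the median of all genes to 0.21, -0.30, 0.18, -0.31 and -0.52 in the 5 comparisons, and the factors shift with it. The share of higher among called genes moved with it, from 68.5 to 95.2% ex vivo, 47.6 to 22.6% after stimulation, 39.6 to 60.5% for stimulation in WT and 39.5 to 11.9% in cKO. The 10 TPM filter called 2 factors ex vivo and 337 genes for the interaction. Limma voom on recovered reads called 3 factors and 1203 genes ex vivo and 395 genes for the interaction. Fits of only the groups compared called 401 genes ex vivo and 552 after stimulation. Quantile normalization called 8 factors and 1572 genes after stimulation and 396 for the interaction, and it reversed stimulation effects for Tcf7 in WT (0.50) and for Ets1 in WT (0.55) and in cKO (0.14). Leaving out WT ex vivo 2 and cKO stimulated 3, a choice made after seeing the data, gave 2 factors after stimulation and 72 genes for the interaction. The cause of these shifts was not tested. A pseudocount of 0.5 changed none of the 40 factor results and median of ratios changed 1, the Id3 call after stimulation.

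With 1 library left out, called factors numbered 1 to 2 ex vivo, 2 to 7 after stimulation, 3 to 5 for stimulation in WT, 5 to 6 in cKO and 1 for the interaction. Called genes numbered 324 to 740, 398 to 1054, 3256 to 4387, 4098 to 5992 and 50 to 203. Of 480 factor results under these fits, 442 stayed on the same side of the threshold, 33 lost and 5 gained a call. No called change turned sign, whereas some uncalled ones near 0 did, such as Tcf7 ex vivo.

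Same-numbered libraries did not deviate together (r over 0.1 in 2 of 18 pairs, range -0.21 to 0.26), so the numbers were not taken to pair the samples. Both pairs lay between WT and cKO ex vivo, where r was 0.149, 0.257 and 0.078 and each library correlated best with its own number in the other genotype, a hint from the data and not from the design. The replicate block called 1 factor and 516 of all genes ex vivo (704 without it), 3 factors (not Id3 or Ets1) and 630 genes after stimulation (923 without it), 3 factors (not Tcf7 or Bach2) and 3945 genes for stimulation in WT (4262 without it) and 65 genes for the interaction. Depth limits Id3 most, with 68 to 94 reads in cKO stimulated.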
